A study of Acipenser schrenckii with 5 samples.

Results

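The microRNAs miR-462 and miR-731 were followed across spleen, muscle, heart, brain and liver of Amur sturgeon (Acipenser schrenckii). They were represented by every array probe whose name, after the 3-letter species prefix, was miR-462 or miR-731, which gave 5 of the 663 miRNA probes. The probes carried zebrafish (dre), channel catfish (ipu) and medaka (ola) sequences, 3 for miR-462 and 2 for miR-731. The tissues came from 1 fish, 5 months old by the study's methods and with no treatment in the labels, and each was hybridised to 1 single-color (Cy3) array from 4 ug of total RNA. Whole tissue was used, the brain sample is spelled "Bain" in the labels, and the muscle sample is labelled only as muscle. Each probe had 5 spots per array, so every SD given here is technical, the tissues have no replicate, and no p-value was computed between them.

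In teleost fish miR-462 and miR-731 are encoded next to each other and are transcribed together. They are related to the miR-191 and miR-425 pair of tetrapods, and in zebrafish and rainbow trout they are known as miRNAs that increase during virus infection, after interferon and in low oxygen. A miRNA finds its messenger RNA targets mainly through the seed, bases 2 to 8 from its 5′ end. No probe for miR-191 or miR-425 was used here.

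The sequences that the probes were made to detect are shown with bases 2 to 8 in capitals, because the probes of one miRNA cover nearly the same bases and read it with different ends.
dre-miR-462: uAACGGAAcccauaaugcagcu
ipu-miR-462: uAACGGAAcccauaaugcagcug
ola-miR-462: gUAACGGAacccauaaugc
dre-miR-731: aAUGACACguuuucucccggaucg
ola-miR-731: aAUGACACguuuucuccc
The zebrafish and catfish forms of miR-462 were 22 and 23 bases long and shared a run of 22 bases. The medaka form was 19 bases long, shared a run of 18 with the zebrafish form, and began 1 base earlier, so its own bases 2 to 8 were shifted. The 18 bases of medaka miR-731 were the first 18 of the 24 bases of the zebrafish form. The probes therefore share their targets and are repeated readings of 2 miRNAs, not independent ones.

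No other probe on the array had the seed of a member at bases 2 to 8 or lay within 4 edits of one, the nearest being at least 7 edits away. The 105 mature sturgeon miRNA entries of the study's sequence table held no close form either, since the nearest differed by at least 8 edits. Of 125 hairpins in that table, 1 began with the miR-731 seed. It is shown whole because its 3′ end is the only relative of miR-731 that the array measured, with the seed and the 22 bases of the measured miRNA, novel_8, in capitals.
novel_8 hairpin: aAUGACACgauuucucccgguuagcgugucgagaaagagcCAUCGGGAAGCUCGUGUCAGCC
The first 9 bases of this hairpin of 62 bases were those of miR-731. Counted from 1 at the 5′ end of the zebrafish miR-731 form, the hairpin differed from it by U10A, A21U and C23A over 24 bases, and from the medaka form by U10A alone over 18 bases. No sturgeon sequence of miR-462 was found in the table, so the fit of the 3 miR-462 probes to the sturgeon miRNA is not known.

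In every tissue miR-462 was detected by 2 or more of its 3 probes, while both miR-731 probes stayed close to the background. This does not compare the amounts of the 2 miRNAs. The 1 hairpin that began with the miR-731 seed differed from both miR-731 probes by U10A. Whether a poor fit of these probes lowered their readings was not tested. Detection required that 50% or more of the spots of a probe have a spot CV under 0.5 and exceed the local background by over 3 SDs of the array's 361 empty spots. The zebrafish and catfish miR-462 probes were detected in all 5 tissues and the medaka probe in all but liver, which made 14 of 15 combinations of a miR-462 probe and a tissue. The zebrafish miR-731 probe was detected in spleen and muscle only and the medaka miR-731 probe in no tissue, which made 2 of 10 combinations.

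By tissue, 4 of the 5 probes were detected in spleen, beside 50.2% of all 663 miRNA probes, and 4 in muscle, beside 65.0%. In heart 3 were detected, beside 52.0% of all probes, and in brain also 3, beside 55.8%. In liver 2 were detected, beside 29.7%. The liver array had the noisiest empty spots, with an SD of 58.5 against 4.91 to 17.6 on the other arrays, so a weak probe was least visible there. Detection in all 5 tissues was found for 2 of the 5 probes and for 25.6% of all probes.

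Signal is the background-corrected density after cyclic loess normalization across the arrays, in arbitrary units, averaged over 5 spots. It was compared between tissues for 1 probe at a time and never between probes. The zebrafish miR-462 probe had a Signal of 12418 ± 733 in spleen, 12338 ± 1841 in muscle, 4457 ± 2400 in heart, 3501 ± 327 in brain and 4254 ± 770 in liver (SD, n = 5 spots). Spleen and muscle were the high tissues for this probe, their spots overlapped, and no spot of either overlapped those of heart, brain or liver. Heart, brain and liver overlapped with each other.

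The large SD in heart came from 1 spot. Its raw density was 503, against 13454 to 14756 in the other 4 spots, and its pixels varied with a CV of 1.22, so it failed the spot criterion. Without it the heart Signal was 5528 ± 192 (SD, n = 4 spots), above brain and still below spleen and muscle.

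The catfish miR-462 probe had a Signal of 7421 ± 727 in spleen, 10055 ± 822 in muscle, 4095 ± 142 in heart, 2691 ± 213 in brain and 1278 ± 393 in liver (SD, n = 5 spots). Here the tissues stood in the order muscle, spleen, heart, brain, liver, and no pair of them shared spot values. In raw density before normalization, the spots of this probe lay between 7454 and 9121 in spleen, between 4230 and 5199 in muscle, between 9192 and 9785 in heart, between 3623 and 4290 in brain and between 323 and 791 in liver. Raw heart spots were thus the brightest, and muscle stood close to brain.

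The medaka miR-462 probe had a Signal of 1644 ± 145 in spleen, 1368 ± 97.3 in muscle, 820 ± 122 in heart, 499 ± 108 in brain and 362 ± 187 in liver, where it was not detected (SD, n = 5 spots). Its order was spleen, muscle, heart and brain, with no overlap of spots between these tissues. In liver, 1 of 5 spots passed the criteria.

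**Figure D1:**
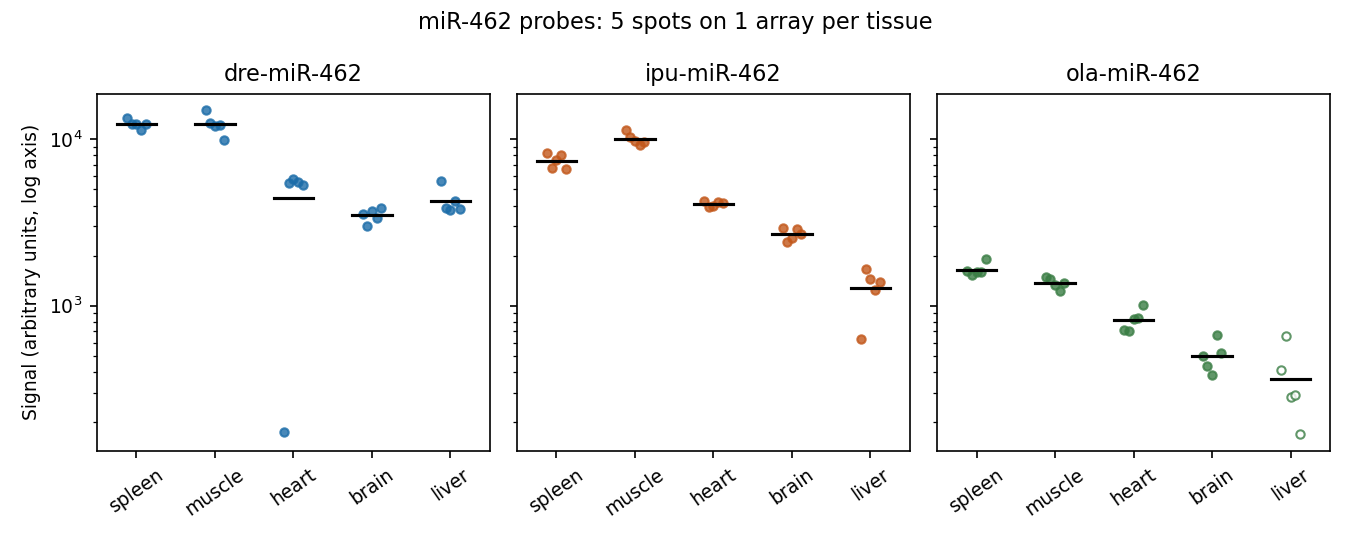
Signal of the 3 miR-462 probes in each tissue (vertical log axis, arbitrary units; horizontal axis, tissue). Each point is 1 of the 5 spots of a probe on 1 array, open where the probe was not detected, and the line is the mean of the spots. Spleen and muscle lie highest for every probe after cyclic loess (heart exceeds muscle without normalization), and the low spot in heart for dre-miR-462 is the one that failed the spot criterion.

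After cyclic loess all 3 miR-462 probes had spleen and muscle above heart, brain and liver, as did 8.39% of the 477 probes detected in at least 1 tissue, but without normalization heart exceeded muscle for all 3. Muscle over brain, between 2.74 and 3.74 after cyclic loess, was then 1.15 for the catfish probe and 1.29 for the medaka probe, and the zebrafish probe had a Signal of 5501 in muscle and 5502 in brain. The pattern was noticed in these values, and the probes share a target, so it counts as 1 observation. The tissue of highest Signal was spleen for the zebrafish and medaka probes, beside 22.6% of the 477 probes, and muscle for the catfish probe, beside 22.6% as well. Without normalization it was spleen for the zebrafish probe and heart for the catfish and medaka probes. The zebrafish heart mean keeps 1 spot that failed the spot criterion. The raw densities of its other 4 heart spots, 13454 to 14756, overlapped those of its spleen spots, 14248 to 15607.

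Spleen and muscle were not ordered alike by the 3 probes. The ratio of spleen over muscle was 1.01 ± 0.16 for the zebrafish probe, 0.738 ± 0.094 for the catfish probe and 1.20 ± 0.14 for the medaka probe (SD from the spots). The catfish and medaka probes thus disagreed, by more than their spot error, on which of these tissues was higher, and the zebrafish probe did not separate them. Without normalization spleen was higher for all 3, by 2.74-fold, 1.83-fold and 1.77-fold in the same order of probes.

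Muscle over heart was 2.77 ± 1.55 for the zebrafish probe, 2.46 ± 0.22 for the catfish probe and 1.67 ± 0.27 for the medaka probe. With passing spots only, the zebrafish probe gave 2.23 ± 0.34. This direction turned round without normalization, where the ratios were 0.486, 0.478 and 0.475. It also turned round with scaling by spiked control probes, where they were 0.652, 0.642 and 0.637. The zebrafish values, 0.486 ± 0.27 and 0.652 ± 0.37, keep the failed heart spot and would be smaller without it. The closeness of the 3 probes under these settings therefore carries no weight. Normalization multiplied the miR-462 values by 2.14 to 2.24 on the muscle array and by 0.394 to 0.610 on the heart array. Which of these tissues holds more miR-462 therefore depends on how the arrays are brought to one scale.

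Part of this shift was common to the whole array. Over the 334 probes detected in both muscle and heart, the median log2 ratio of muscle over heart, on the log2(Signal + 50) scale, was 0.09 after cyclic loess and -1.40 without normalization. Taken against that median, all 3 miR-462 probes, which read 1 miRNA, stood higher in muscle than in heart under all 7 ways of processing. The excess was 0.35 to 1.37 on the log2 scale. Without normalization it was 0.37, 0.35 and 0.39 for the zebrafish, catfish and medaka probes. The 0.37 keeps the failed heart spot of the zebrafish probe, which lowers its heart mean. Without that spot it would be smaller, and it was not computed, so 0.35 is not a lower limit for the 3 probes. About 50% of all probes stand above their median by construction, so such an excess does not settle which tissue holds more miR-462. Against the median of its pair of arrays, spleen exceeded heart by 0.57 to 1.34 in all 3 probes under all 7 ways, and heart exceeded brain by 0.60 to 1.37. The ends of these ranges, and the 1.37 for muscle over heart, came from the zebrafish probe with its failed heart spot kept. With passing spots only, that probe gave 1.06 for muscle over heart, 0.96 for spleen over heart and 0.91 for heart over brain. Other pairs had no common direction. Spleen over muscle ran from -0.59 to 0.95 against the median, with 1 to 3 of the 3 probes above it. Brain over liver ran from -0.45 to 1.31, with 2 to 3 probes above. The 7 ways are not independent. Spike scaling divides the unnormalized values by a single factor per array, and the median over spots and the passing spots reuse the cyclic loess values. Taking off the median also assumes, as normalization does, that most probes do not differ between tissues.

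Brain and liver were below spleen in all 3 probes whichever way the arrays were processed. Spleen over brain was 3.55 ± 0.39 for the zebrafish probe, 2.76 ± 0.35 for the catfish probe and 3.30 ± 0.77 for the medaka probe. Over the 7 ways of processing these ratios lay between 2.10 and 4.96. Spleen over liver was 2.92 ± 0.56 for the zebrafish probe and 5.81 ± 1.87 for the catfish probe. For the medaka probe, not detected in liver, spleen was at least 4.50-fold higher, set against the lowest detected Signal of 366 on the liver array. The probes detected in liver gave ratios between 2.67 and 15.9 over the 7 ways of processing.

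**Figure D2:**
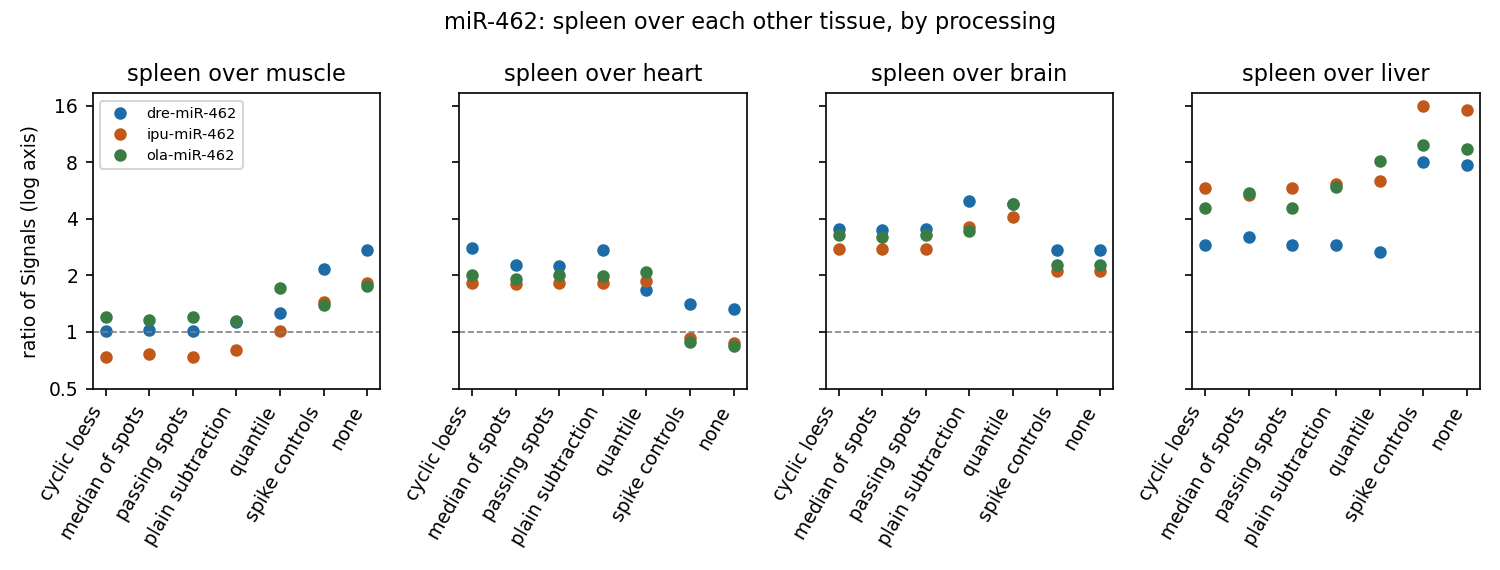
Ratio of Signals of spleen over muscle, heart, brain and liver (vertical log axis; 1 panel each) for the 3 miR-462 probes under 7 ways of processing (horizontal axis); each point is 1 probe, ola-miR-462 was not detected in liver, and the dashed line marks equal Signal. All points for brain and liver lie above 2, while those for muscle and heart fall on both sides of 1.

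After cyclic loess the zebrafish probe did not separate brain from liver, while the catfish probe read brain higher. Brain over liver was 0.823 ± 0.168 for the zebrafish probe and 2.11 ± 0.67 for the catfish probe. Without normalization it was 2.82 for the zebrafish probe and 7.24 for the catfish probe, and with spike scaling 2.95 and 7.58 in the same order. The 2 probes differ in length by a single base at the 3′ end. After cyclic loess their liver values took different ranks, but the liver spots of the zebrafish probe overlapped those of brain.

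The samples were checked against miRNAs known from single tissues or cell types, each by its brightest probe. In liver miR-122, a miRNA of hepatocytes, had a Signal of 39195, in brain miR-9, a neural miRNA, had 38583, and in heart miR-499, a cardiac muscle miRNA, had 13709. In muscle miR-1, found in striated muscle, had 32078. The other brain miRNA of the lists, miR-124, had 13673 in brain. The other muscle and heart miRNA, miR-133, was read by pol-miR-133-5p, 1 of its 12 probes, and the others are not reported here. That probe had 126306 in muscle, and heart was its lowest tissue. Its Signal was 12079 there, against 44249 in liver, 24053 in brain and 20156 in spleen. The muscle sample also held both miRNAs of the skin list, with a Signal of 8641 for miR-203 and 14267 for miR-205, which summed to 22908 in muscle, against 210 in spleen, 39.6 in heart, 234 in brain and 482 in liver. Their part in the muscle values of miR-462 was not tested. The 3 pancreas miRNAs were highest in liver, with a summed Signal of 12321, against 3907 in spleen and 84.0 to 748 in the other tissues, and their part was not tested.

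All 4 blood-cell miRNAs were highest in spleen, although without normalization the smallest of their spleen over heart ratios was 0.952. miR-144 and miR-451, which mark red cells (nucleated in fish), and miR-142 and miR-223, which mark white cells, were set beside miR-462. miR-451 had a Signal of 19347 in spleen, 6819 in muscle, 6476 in heart, 2979 in brain and 6988 in liver. miR-144, read by its 5p probe, had 6245 in spleen, 561 in muscle, 435 in heart, 192 in brain and 691 in liver. Spleen alone was high for both red cell miRNAs.

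miR-142 had a Signal of 9297 in spleen, 1451 in muscle, 4578 in heart, 569 in brain and 1911 in liver. miR-223 had 5929 in spleen, 1792 in muscle, 2799 in heart, 469 in brain and 2871 in liver. Of the 3 other immune miRNAs, miR-146 and miR-155 were highest in spleen. The third, miR-150, was highest in heart, with 5209 against 3360 in spleen. Spleen over muscle was between 2.84 and 11.1 for the 4 blood-cell miRNAs, against 0.738 to 1.20 for the miR-462 probes. The ranges stayed apart without normalization, at 6.96 to 17.0 for the blood-cell miRNAs and 1.77 to 2.74 for miR-462. Spleen over brain was also apart, at 6.50 to 32.5 for the blood-cell miRNAs and 2.76 to 3.55 for miR-462. Spleen over heart overlapped, at 2.03 to 14.4 for the blood-cell miRNAs and 1.81 to 2.79 for miR-462, and so did spleen over liver. In bulk tissue, fewer cells of a type and less RNA per cell cannot be told apart.

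**Figure D3:**
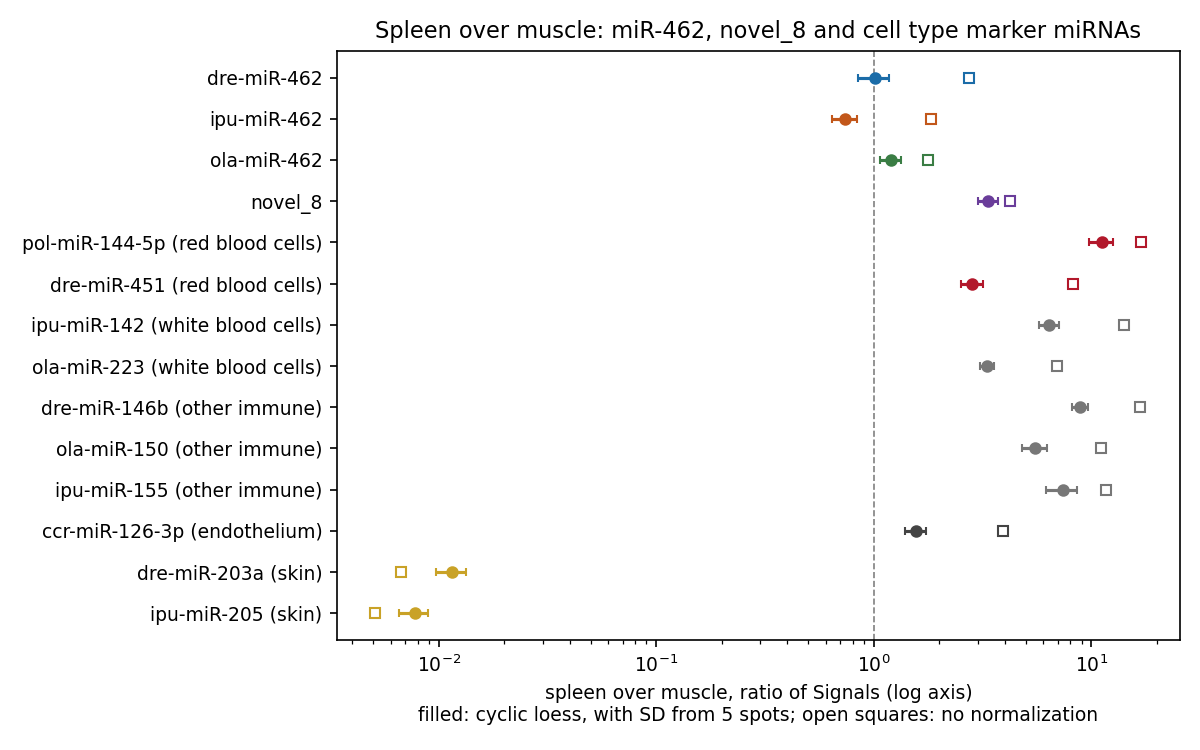
Ratio of Signals of spleen over muscle (horizontal log axis) for the miR-462 probes, novel_8 and the brightest probe of each blood, immune, endothelial and skin miRNA (rows). Filled points are after cyclic loess with the SD from 5 spots, open squares are without normalization, and the dashed line marks equal Signal. The filled miR-462 points lie between 0.738 and 1.20 and the filled blood-cell points from 2.84 upward. Between them lies the endothelial miR-126, at 1.56 ± 0.17, or 3.93 without normalization.

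The likeness of 2 tissue profiles was taken as the root mean square difference, over the 5 tissues, of log2(Signal + 50) after each probe's mean was taken off, where 0 means the same profile. The zebrafish and catfish miR-462 probes differed by 0.56, the zebrafish and medaka probes by 0.35 and the catfish and medaka probes by 0.37. The median over all 113526 pairs of the 477 detected probes was 1.10, and 7.77% to 19.8% of those pairs were closer than these 3. Readings of one miRNA were thus closer than the median pair, but many unrelated pairs were closer still. With its failed heart spot kept, the zebrafish probe was nearer to each of the 5 unrelated probes named next than to the catfish miR-462 probe. The zebrafish and catfish difference was 0.52 with passing spots only and 0.42 with the median over spots. The differences to the 5 unrelated probes are not given for these settings.

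Outside the members, the profile most like that of the zebrafish miR-462 probe was that of ola-miR-455-3p, at 0.38. Its Signal was 940 in spleen, 635 in muscle, 385 in heart, 378 in brain and 361 in liver, where it was not detected. Next came dre-miR-140-3p at 0.38, ccr-miR-140-3p at 0.44, ola-miR-19d at 0.46 and ipu-miR-140 at 0.48. Of these 5 probes, 3 read miR-140, a miRNA of cartilage in zebrafish and mouse, and are not independent. The dre-miR-140-3p probe had a Signal of 1903 in spleen, 2612 in muscle, 1143 in heart, 1167 in brain and 1125 in liver, with spleen and muscle its highest tissues.

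The miR-731 probes gave only weak values. For the zebrafish probe the spots exceeded the local background by 27.1 to 34.2 in spleen, 19.6 to 40.1 in muscle, 19.9 to 52.6 in heart, 3.29 to 89.1 in brain and -45.8 to 16.8 in liver, in raw density. All 5 spots passed in spleen, where the limit was 17.7, and in muscle, where it was 14.7. In heart the limit was 39.3 and 2 of 5 spots passed, in brain it was 52.9 and 1 passed, and in liver it was 175.5 and none passed. The tissues in which miR-731 was detected were thus those with the lowest limits, and the median heart density above background of 35.3 was as high as that of 31.2 in spleen and 28.9 in muscle.

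The Signal of the zebrafish miR-731 probe was 74.4 ± 9.9 in spleen, 60.4 ± 10.8 in muscle, 61.4 ± 13.2 in heart, 44.5 ± 36.4 in brain and 32.1 ± 15.3 in liver (SD, n = 5 spots). Spleen and muscle, where the probe was detected, lay within 2 of their SDs. The values of heart, brain and liver were given no order because the probe was not detected there by the main criterion. On the heart array the empty spots had an SD of 13.1 but a robust SD of 4.26. With the robust SD the probe was detected in heart too. The comparison of spleen with muscle depended on the processing. With quantile normalization the Signal was 82.6 ± 4.9 in spleen and 44.5 ± 6.7 in muscle, and with plain subtraction 65.0 ± 6.3 in spleen and 33.9 ± 9.3 in muscle, both apart by more than the spot SDs. With spike scaling it was 43.6 ± 3.3 in spleen and 47.4 ± 7.6 in muscle, within them. For the medaka miR-731 probe, the median spot exceeded the background by 4.11 in spleen, 12.6 in muscle, 2.71 in heart, 5.40 in brain and 2.65 in liver, and 2 spots in muscle passed.

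The zebrafish miR-731 and miR-462 probes differed by 0.66 on this measure. The miR-731 profile rests on undetected values in heart, brain and liver, and the 50 added before the log is about as large as its Signals and flattens it, so neither this value nor a list of like profiles describes miR-731. By the same rule as for miR-462, the 5 nearest probes were dre-miR-92a at 0.20, ola-miR-27a at 0.20, ola-miR-17 at 0.20, dre-miR-19a-3p at 0.21 and dre-miR-20a-5p at 0.24. Their Signals were not all high and not all equal across tissues. ola-miR-27a lay between 425 and 549, and dre-miR-20a-5p between 902 and 1341. dre-miR-92a had 2925 in spleen, 2303 in muscle, 2416 in heart, 2709 in brain and 2400 in liver.

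**Figure D4:**
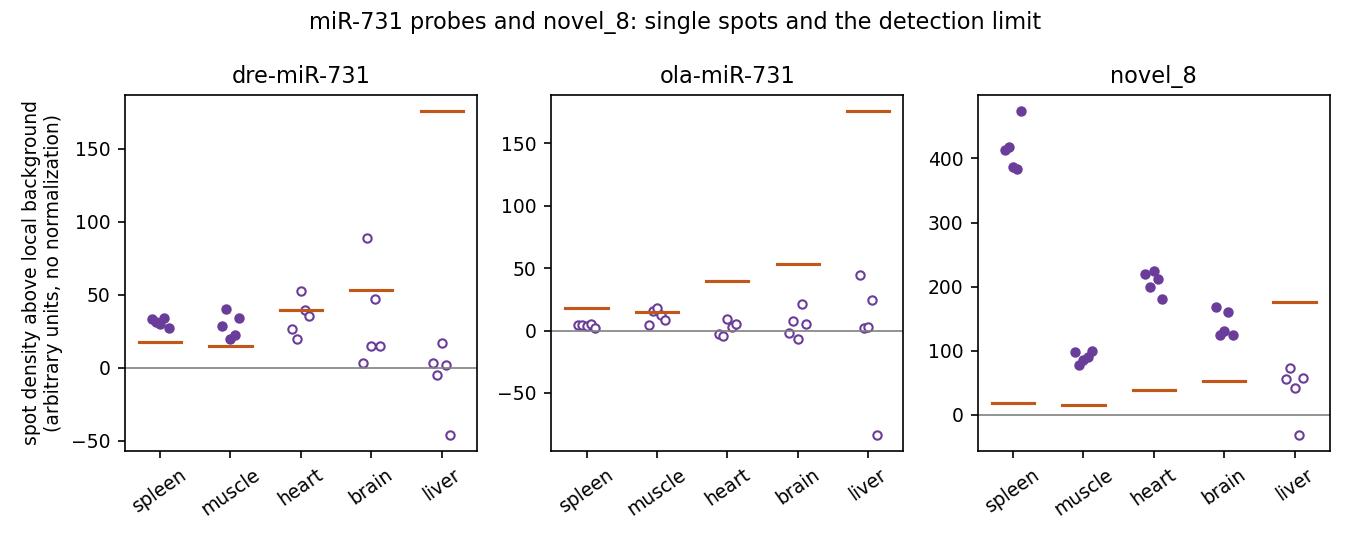
Density above the local background before normalization (vertical axis, arbitrary units, 1 scale per panel) for the 2 miR-731 probes and novel_8 in each tissue (horizontal axis). Each point is 1 of 5 spots on 1 array, filled where the probe was detected, and the orange line is the limit of 3 SD of the empty spots. The miR-731 spots lie near the limit or below it, and the novel_8 spots in spleen lie between 384 and 473.

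novel_8, from the 3′ end of the hairpin that begins with the miR-731 seed, was well above background. Its Signal was 877 ± 63.6 in spleen, 261 ± 19.96 in muscle, 185 ± 18.5 in heart, 168 ± 27.3 in brain and 194 ± 55.7 in liver, where it was not detected (SD, n = 5 spots). Spleen stood alone, with no spot shared with another tissue. Spleen over muscle was 3.35 ± 0.35, spleen over heart 4.74 ± 0.59 and spleen over brain 5.21 ± 0.93. Against liver, spleen was at least 2.40-fold higher.

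A spleen Signal at least 2-fold above every other tissue was found for 7.55% of the 477 detected probes, and novel_8 was among them by its Signals. Spleen was its highest tissue under all 7 ways of processing, with spleen over muscle between 3.33 and 4.23 and spleen over heart between 1.97 and 4.87. Its spleen over muscle ratio lay above those of the 3 miR-462 probes under each of the 7. After cyclic loess it fell among those of the 4 blood-cell miRNAs, but it was below them at 3.42 with quantile normalization, 3.33 with spike scaling and 4.23 without normalization. Its profile differed from that of the zebrafish, catfish and medaka miR-462 probes by 0.54, 0.89 and 0.56. No probe on the array shared bases 2 to 8 of novel_8 itself, and no probe matched the 5′ end of its hairpin exactly, the miR-731 probes differing from it at least by U10A.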

How the data were processed

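Array values came from 5 Cy3 microarrays, 1 per tissue of 1 fish. The authors deposited scanner output, the median density of each spot (a raw intensity, linear, before background subtraction and normalization) and the intensity SD over its pixels, made with a GenePix scanner and Array-Pro. Samples were assigned to tissues from the labels. Their table of processed values was not used here.

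Background was corrected with limma 3.58.1 in R 4.3.3 by normexp with an offset of 50, as no local background is in the files. Cyclic loess with 3 iterations on log2 values then brought the 3315 probe spots of the arrays to one scale. The offset was taken off and the spots of a probe were averaged. Local background in the detection criterion was the median of the 20 nearest empty spots. A ratio has an SD propagated from the spots. Against a tissue without detection it is a bound, taken over whichever is larger, the Signal of the probe there or the lowest detected Signal of that array. Other steps used Python 3.11.15, numpy 2.4.6, pandas 2.3.3 and matplotlib 3.10.9. The steps were tested on simulated arrays with a single gain per array and equally noisy empty spots. The real arrays differed in both respects, so the test does not cover their scaling or the noise of the liver array.

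Alternatives were plain subtraction, quantile normalization, no normalization, the median over spots, passing spots only, and, chosen after seeing the data, scaling by 16 spike controls with a density above 1000 on every array. Probes named are the members, the brightest probe of each cell type marker and novel_8, a relative only through the other end of its hairpin. Also named are the 5 profiles most like the brightest probe of each miRNA (detected, Signal above 500). Members and lists were chosen with earlier results of these data known. Normalization assumes that most probes do not differ between tissues. Mature and hairpin sequences of the sturgeon came from the study's supplementary table and no genome was used, so no coordinates are given. The precision is limited by having 1 array for each tissue, and differences between fish cannot be seen.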

Additional observations from a re-analysis of the deposited data

How the results depend on the processing

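Of 58 alternative values for the detection counts, the main tissue ratios of miR-462 and the profile likeness, 41 stayed within their spot error or within 1.5 times the count. The likeness values could hardly move by this rule, because their tolerances of 0.87 and 0.71 exceeded the main values of 0.56 and 0.66. The 41 are therefore no measure of how stable the tissue ratios are. The other 17 were all ratios of spleen over muscle or muscle over heart, of which 8 moved and 9 reversed. Further values, outside the 58, covered the other tissue ratios, novel_8 and the lists of like profiles. Of these, 54 stayed, 37 moved and 9 reversed. Spleen over muscle moved to 1.26, 2.74 and 2.16 for dre-miR-462 with quantile normalization, no normalization and spike scaling, and to 1.72, 1.77 and 1.39 for ola-miR-462. For ipu-miR-462 it was 1.01 ± 0.099 with quantile normalization, where spleen and muscle did not separate, and reversed to 1.83 and 1.44 without normalization and with spike scaling. Muscle over heart moved with quantile normalization to 1.85 for ipu-miR-462 and 1.21 for ola-miR-462. It reversed without normalization to 0.486, 0.478 and 0.475, and with spike scaling to 0.652, 0.642 and 0.637, for dre-, ipu- and ola-miR-462. The dre-miR-462 values keep its failed heart spot. Outside the 58 values, spleen over heart reversed without normalization and with spike scaling. It went to 0.874 and 0.924 for ipu-miR-462 and to 0.839 and 0.888 for ola-miR-462. Brain over liver of dre-miR-462 went from 0.823, where the spots overlapped, to 2.82 and 2.95 under these settings. Muscle over heart of novel_8 reversed to 0.923 with quantile normalization, 0.466 without normalization and 0.625 with spike scaling. The cause was not tested. With the robust SD of the empty spots, 15 of 15 miR-462 and 3 of 10 miR-731 combinations were detected. The combinations gained were ola-miR-462 in liver and dre-miR-731 in heart. The 5 profiles most like dre-miR-731 shared 0 to 3 probes with the list given, under every alternative tried. Those most like dre-miR-462 shared 3 to 5, with 3 kept without normalization and with spike scaling. No paired analysis was possible because each tissue has 1 array, and no test was run. Weak probes were limited by the empty spots, most on the liver array.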

Other observations

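The seed of miR-462 occurred inside the target of 1 other probe, pol-miR-133-5p, starting at its base 9, and that of miR-731 inside ipu-miR-7571, also at base 9. The Signal of pol-miR-133-5p was 20156 in spleen, 126306 in muscle, 12079 in heart, 24053 in brain and 44249 in liver, so its lowest tissue was heart. ipu-miR-7571 stayed between 31.9 and 42.9 in all tissues.

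The level of the 16 spike controls relative to their own mean over the arrays was 1.03 in spleen, 0.809 in muscle, 1.08 in heart, 1.03 in brain and 1.07 in liver. The controls thus read lowest on the muscle array, and the amounts added are not given in the sources used here.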
